A study of Mus musculus with 4 samples.

Results

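Six-family, Eya, Pitx and Meox proteins act near the top of the gene network that makes skeletal muscle, upstream of the myogenic factors Myf5, Myod1, Myog and Myf6. Six-family proteins are homeodomain factors that bind MEF3 sites in muscle gene promoters, and Eya proteins are phosphatases that do not bind DNA by themselves and act as their coactivators. Pitx proteins are bicoid-type homeodomain factors of myogenic precursors and of the adult muscle stem cell, and Meox factors are homeodomain proteins of the somite and the limb muscle precursors. The members described here were 8 genes chosen by symbol, Six2, Six4, Six5, Eya1, Eya3, Eya4, Pitx3 and Meox2, of 43437 gene IDs in the expression tables. Each symbol matched a single gene ID, and all 8 had a usable value in all 4 libraries.

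The RNA came from satellite cells, which are the resident stem cells of muscle fibres, isolated by FACS from C57BL/6 mice aged 4 weeks and cultured for 24 h under growing conditions. All mice were HDAC4fl/fl Pax7CE/+, and received either vehicle (control) or tamoxifen, TMX (HDAC4 KO), so that loxP-flanked Hdac4 was to be cut only after TMX. The recombinase, CreER, was driven from the Pax7 locus and replaced the product of 1 Pax7 allele, so both groups carried a single working copy of Pax7, and TMX and loss of HDAC4 cannot be told apart in these libraries. Each group held 2 libraries, numbered 3 and 4, and no label states that these were separate animals. Each p-value is therefore set against the spread of these 4 samples alone, which may be technical.

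Levels are given in FPKM, the fragments per kilobase of transcript scaled to the library's total. Many deposited values had lost their decimal point and were restored as set out in the processing section. The ratios between libraries were fixed for all 8 members, whereas the power of 10 common to the 4 libraries was open for Eya3 and Pitx3, whose levels rest on the width of their confidence bounds. The relative depth read from those widths was 1 in control 3, 0.695 in control 4, 0.618 in KO 3 and 0.613 in KO 4, so the KO libraries were the shallowest. Differences are HDAC4 KO minus control on the log2(FPKM + 1) scale, which understates the change of low genes. They were tested with limma and adjusted after Benjamini-Hochberg over the 11900 genes that averaged 1 FPKM or more, and a gene was called at an adjusted p under 0.05.

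Hdac4, the targeted gene, was at 5.04 and 5.85 FPKM in the control libraries and at 1.58 and 2.36 FPKM in the KO libraries, with its power of 10 also open. The groups did not overlap, in the direction of the labels, and the log2 difference was -1.13 ± 0.18 (SE, limma adjusted p = 0.184, or 0.0472 with protein-coding genes only). Satellite cell markers made up a summed 1027 and 1265 FPKM in control 3 and 4 and 949 and 968 FPKM in KO 3 and 4. Most of each sum was Myod1, at 633, 833, 563 and 530 FPKM in the same order. Pax7, Myf5 and Myod1 were lower in both KO libraries, Sdc4 was higher in both, and Itga7, Vcam1 and Chrna1 overlapped between groups. The power of 10 was fixed for Myod1 and Itga7 and open for Pax7, Myf5, Vcam1, Sdc4 and Chrna1. Itga7, which the sort selected for, was at 124 to 149 FPKM in the 4 libraries. Control 3 stood apart in mature myofibre genes, whose sum was 1567 FPKM there and 139, 104 and 208 FPKM in control 4, KO 3 and KO 4.

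A promoter sequence was given by RefSeq (build GRCm38.p6, 250 bases before to 50 after the start of transcription) for 7 of the 8 members in 9 windows, and no entry matched Eya1. Short motifs of muscle promoters were searched on both strands, namely MEF3 (TCAGGTT), the E-box (CANNTG) and the MEF2 site by its named consensus. The MEF3 letters were found in 1 member window, of Six4, against 4.07% of all 32851 windows. The MEF2 consensus was found in 1 member window, of Meox2, against 3.19% of all windows. The E-box was found in windows of Eya3, Eya4, Meox2 and Pitx3, which is 5 of 9, against 72.3% of all windows. A match is a stretch of letters and was not tested as a binding site. MEF2 proteins are well known partners of HDAC4 and MEF3 is the site of Six-family proteins themselves, so both matches are shown here, with the motif in capitals and the strand of the gene, 5′ to 3′.
Meox2, the 120 bases before its start, chr12:37108420-37108539, plus strand, MEF2 match in capitals: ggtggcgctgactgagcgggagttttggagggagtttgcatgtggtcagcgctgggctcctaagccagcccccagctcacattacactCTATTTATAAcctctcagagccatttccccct
Six4, 30 bases around the MEF3 letters, chr12:73113325-73113354, minus strand, in capitals the MEF3 letters as read on the opposite strand: tggcctgggggaAACCTGAtcggccagatc
The MEF2 match of Meox2 spans positions -32 to -23 from the start and shares its last letters with a TATAA run, and the E-box of Meox2 spans positions -82 to -77. The MEF3 letters of Six4 span positions -97 to -91 from the more downstream of its 2 RefSeq starts, inside the span that the deposited tables give to the gene.

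The members differed widely in level, as the plot of FPKM by library shows. The order of the mean levels was Pitx3 at 58.4 FPKM, Eya3 at 33.2 FPKM, Eya1 at 12.3 FPKM, Six2 at 11.0 FPKM, Six4 at 9.31 FPKM, Eya4 at 1.16 FPKM, Six5 at 1.09 FPKM and Meox2 at 0.462 FPKM. The 4 libraries of Eya1 and Six2, of Six2 and Six4, and of Eya4 and Six5 overlapped, whereas the other neighbours had ranges that did not meet. Within a library, Six2 was above Six4 in 4 of 4, Eya1 above Six2 in 2 of 4 and Eya4 above Six5 in 2 of 4. The places of Pitx3 and Eya3 depend on their open power of 10. For Eya3, the next lower level would need confidence bounds as narrow as those of 0.748% of the genes with a fixed level.

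**Figure D1:**
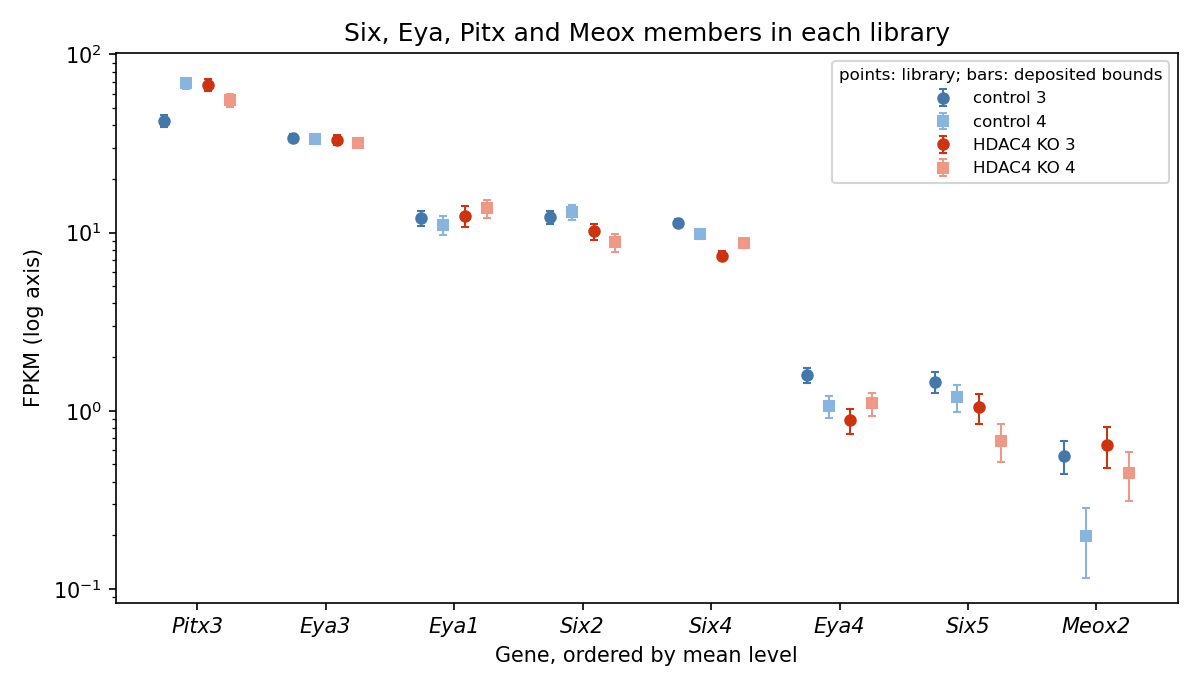
FPKM of each member (log axis) in control 3, control 4, HDAC4 KO 3 and HDAC4 KO 4. Points are libraries and bars are the confidence bounds deposited with each value. Six2, Six4 and Six5 lie lower in both KO libraries than in both controls, Eya3 lies at 31.9 to 34.0 FPKM in all 4, and Meox2 is lowest in control 4 at 0.199 FPKM.

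All members but Meox2 passed the 1 FPKM filter, and 0 of these 7 were called by limma, where the share of all genes called was 0.0%. With protein-coding genes only, 0 of the 7 were called beside 0.678% of those genes, 0.0573% lower and 0.621% higher in the KO. Of the 7, 5 lay below 0 and 2 above, beside 42.6% and 57.4% of all genes. At an unadjusted p under 0.05, 2 members were lower in the KO (Six2 and Six4) and 0 higher, beside 3.72% of all genes lower and 10.8% higher. The 2 libraries of each group did not overlap for 4 members that were lower in the KO, Six2, Six4, Six5 and Eya3, and for 1 that was higher, Eya1, and the same held for 17.7% of all genes lower, 30.9% higher and 48.7% in either direction. The median difference of the 7 members was -0.21 and that of all genes tested was 0.04.

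The 3 Six-family members were each lower in both KO libraries than in both control libraries, by 24.8% for Six2 and 23.8% for Six4 on the means, but none was called. Six2, a homeodomain factor best known for keeping kidney progenitors undifferentiated, lies at chr17:85684277-85688274 (ENSMUSG00000024134). It was at 12.2 FPKM in control 3, 13.0 in control 4, 10.1 in KO 3 and 8.81 in KO 4. Its mean was thus 12.6 ± 0.54 FPKM in control and 9.48 ± 0.95 in KO (SD, n = 2 libraries), a mean 24.8% lower. The log2 difference of Six2 was -0.38 ± 0.11 (SE, 95% interval -0.68 to -0.08, limma adjusted p = 0.275). The deposited bounds of control 3, 11.2 to 13.2 FPKM, met those of KO 3, 9.07 to 11.2 FPKM, so not every control library stood clear of every KO library by its bounds.

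Six4, which drives myogenic factor genes in the mouse embryo, lies at chr12:73099609-73113456 (ENSMUSG00000034460). It was at 11.4 FPKM in control 3, 9.78 in control 4, 7.41 in KO 3 and 8.70 in KO 4. The KO libraries were both lower than the controls, and the KO mean was 23.8% lower. The log2 difference was -0.35 ± 0.13 (SE, 95% interval -0.70 to -0.0047, limma adjusted p = 0.341). The deposited bounds of Six4 did not meet between any KO and any control library. They did not meet within a group either, since control 3 (10.8 to 11.9 FPKM) stood above control 4 (9.26 to 10.3 FPKM), and KO 4 (8.21 to 9.19 FPKM) above KO 3 (6.97 to 7.84 FPKM), so libraries of the same group also differed beyond their bounds.

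Six5, the gene next to the myotonic dystrophy kinase gene Dmpk, lies at chr7:19094594-19098549 (ENSMUSG00000040841). Its levels were low, 1.45 FPKM in control 3, 1.19 in control 4, 1.05 in KO 3 and 0.677 in KO 4. The groups did not overlap, yet control 4 and KO 3 were close and KO 4 stood below the rest. The log2 difference was -0.32 ± 0.21 (SE, limma adjusted p = 0.521), and the ratio of the KO mean to the control mean was 0.654. Dmpk, 772 bases from Six5, was at 389, 533, 417 and 465 FPKM in the same order of libraries, so its KO libraries lay between its controls (log2 difference -0.05, adjusted p = 0.919).

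The summed level of Six2, Six4 and Six5 was 25.0 and 24.0 FPKM in control 3 and 4 and 18.6 and 18.2 FPKM in KO 3 and 4. Within each group the library with more Six2 had less Six4, and the sums of a group differed by a smaller ratio than Six2 or Six4 alone. Six2 held 48.4% to 54.6% of the sum, Six4 39.8% to 47.8% and Six5 3.72% to 5.78%, with the ranges of control and KO overlapping for each.

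Without control 3, the library that stood apart in myofibre genes, the differences were -0.42 for Six2, -0.26 for Six4 and -0.24 for Six5, so the direction of each was kept.

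**Figure D2:**
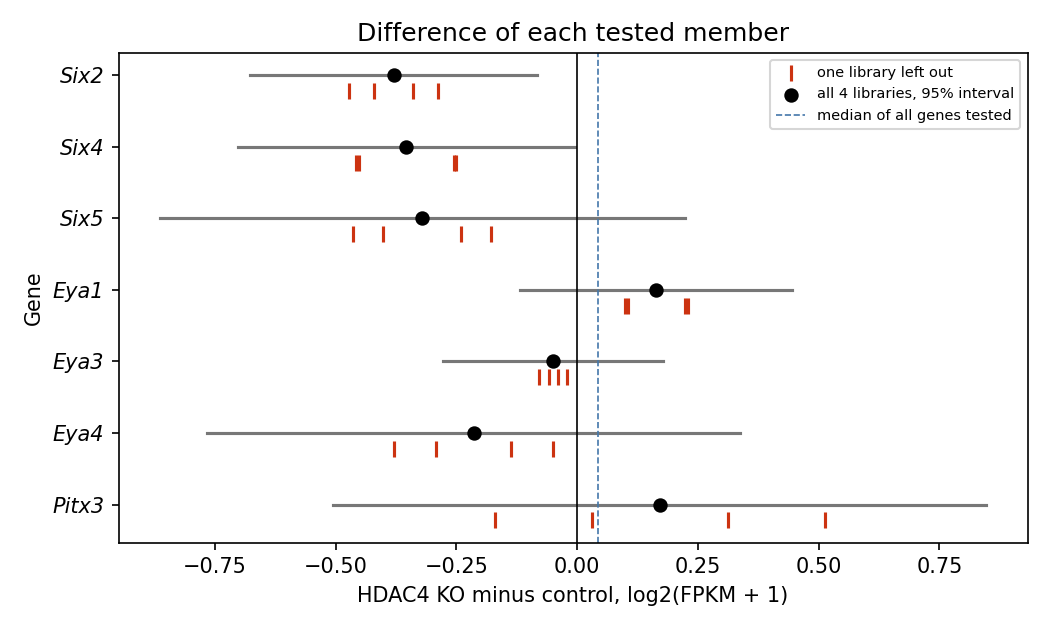
Log2 difference, HDAC4 KO minus control on log2(FPKM + 1), of the 7 tested members. Black points use all 4 libraries, grey lines are 95% intervals from limma, red ticks leave out 1 library each and the dashed line is the median of all genes tested at 0.04. Six2, Six4, Six5, Eya3 and Eya4 stay below 0 whichever library is left out, Eya1 stays above 0, and Pitx3 lies on both sides.

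The Eya genes did not move as a family. Eya1, a coactivator of Six-family proteins in muscle precursors, lies at chr1:14168954-14310235 (ENSMUSG00000025932). It was at 12.1 FPKM in control 3, 11.0 in control 4, 12.4 in KO 3 and 13.7 in KO 4. Both KO libraries were above both controls, but KO 3 and control 3 were nearly level and the deposited bounds overlapped. The log2 difference was 0.16 ± 0.11 (SE, 95% interval -0.12 to 0.45, limma adjusted p = 0.527).

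Eya3, the most abundant Eya gene here, lies at chr4:132638987-132724765 (ENSMUSG00000028886). It was at 34.0 FPKM in control 3, 33.5 in control 4, 33.3 in KO 3 and 31.9 in KO 4, the narrowest spread of the members. The difference was -0.05 ± 0.09 (SE, 95% interval -0.28 to 0.18, limma adjusted p = 0.812).

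Eya4, known for its part in hearing and heart function in humans, lies at chr10:23104168-23349895 (ENSMUSG00000010461). It was at 1.59 FPKM in control 3, 1.06 in control 4, 0.885 in KO 3 and 1.10 in KO 4. Control 3 was above the other 3 libraries, control 4 lay between the KO libraries, and the deposited bounds of the 2 controls did not meet. The difference was -0.21 ± 0.21 (SE, limma adjusted p = 0.656), and -0.05 without control 3, the library high in mature myofibre genes.

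The sum of Eya1, Eya3 and Eya4 was 47.6 and 45.6 FPKM in control 3 and 4 and 46.6 and 46.7 FPKM in KO 3 and 4, so that the KO libraries lay between the controls. Eya3 held 68.3% to 73.5% of this sum in the 4 libraries, a share that rests on its open power of 10. Eya1 held 25.3% and 24.2% in the controls and 26.7% and 29.3% in the KO. Eya2, the remaining Eya gene, was at 0.222 to 0.580 FPKM in the 4 libraries and under the filter.

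Pitx3, a homeodomain factor of lens, dopamine neurons and skeletal muscle, lies at chr19:46135685-46148326 (ENSMUSG00000025229). It was at 42.4 FPKM in control 3, 68.7 in control 4, 67.3 in KO 3 and 55.2 in KO 4. The groups overlapped fully, since the controls held both the lowest and the highest value and their bounds did not meet, nor did those of KO 3 and KO 4. The log2 difference was 0.17 ± 0.26 (SE, 95% interval -0.50 to 0.85, limma adjusted p = 0.781). It was -0.17 without control 3 and 0.51 without control 4, so a single control library set its sign. Control 3, low in Pitx3, was the library high in mature myofibre genes, and the part of these in the value was not tested. Elovl3 and Gbf1, which lie 377 and 4182 bases from Pitx3, had differences of -0.17 and -0.11 (adjusted p = 0.747 and 0.838).

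Meox2, which acts in limb muscle patterning and is also expressed in blood vessels, lies at chr12:37108540-37179534 (ENSMUSG00000036144). It was at 0.560 FPKM in control 3, 0.199 in control 4, 0.641 in KO 3 and 0.449 in KO 4, under the filter. Control 4 was lowest, with bounds of 0.116 to 0.283 FPKM that did not meet those of any other library, and control 3 lay between the KO libraries. Fitted with no filter, the difference was 0.17 ± 0.17 (SE, limma adjusted p = 0.731). Control 4 was also lowest in the summed endothelial markers, at 5.25 FPKM. That sum was 10.6 FPKM in control 3, 11.5 in KO 3 and 11.2 in KO 4. Within that list, Tek was lowest in control 3 and Emcn in KO 3. The summed fibro-adipogenic, blood, glial and smooth muscle markers were lowest in control 4 too, so this was not particular to endothelial markers. The part of any of these markers in the Meox2 value was not tested. Meox1 was also lowest in control 4, at 0.154 FPKM against 0.390, 0.364 and 0.240.

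Markers of some other cell types were higher in the KO libraries, where the Six-family members were lower. Summed smooth muscle and pericyte markers were 53.4 and 38.6 FPKM in control 3 and 4 and 104 and 124 FPKM in KO 3 and 4. Of the 6 listed, 3 were tested (Acta2, Tagln and Cspg4), each with its power of 10 open. All 3 were higher in the KO and called with protein-coding genes only. The rest, under the filter, were mixed. Pdgfrb was higher in both KO libraries, whereas the groups overlapped for Myh11 and Rgs5. The ratios of the KO mean to the control mean were 1.61 for Pdgfrb, 1.63 for Myh11 and 0.594 for Rgs5. Summed glial markers were 15.6 and 14.3 FPKM in control and 34.3 and 31.1 FPKM in KO. Of these, 5 of 6 were tested, with 5 above 0 and 2 called with protein-coding genes only. The largest part of the glial sum was Ngfr, whose power of 10 was open. Fibro-adipogenic markers summed to 34.7 and 25.6 FPKM in control and 56.3 and 54.9 FPKM in KO, most of it Gsn in the KO. The defining marker Pdgfra, under the filter, was at 0.907 and 0.435 FPKM in control and higher in both KO libraries, at 1.33 and 1.30 FPKM. Dcn was also higher in both KO libraries. The groups overlapped for the other listed markers, Ly6a, Dpt and Col15a1, with ratios of the KO mean to the control mean of 0.754, 0.314 and 0.703. Of the blood markers, Lyz2 was at 2.25 and 1.72 FPKM in the control libraries and at 5.94 and 4.19 FPKM in the KO libraries (power of 10 open, difference 1.01, limma adjusted p = 0.214), and Cd68 at 2.53 and 2.45 FPKM in control and 3.19 and 3.37 FPKM in KO (difference 0.30, adjusted p = 0.393). Both were higher in both KO libraries, whereas Ptprc (CD45), a protein the sort was to exclude, was at 0.0275 FPKM or less in every library. In bulk RNA, fewer cells of a type and less RNA per cell cannot be told apart, and the part of these markers in the lower Six-family values was not tested.

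**Figure D3:**
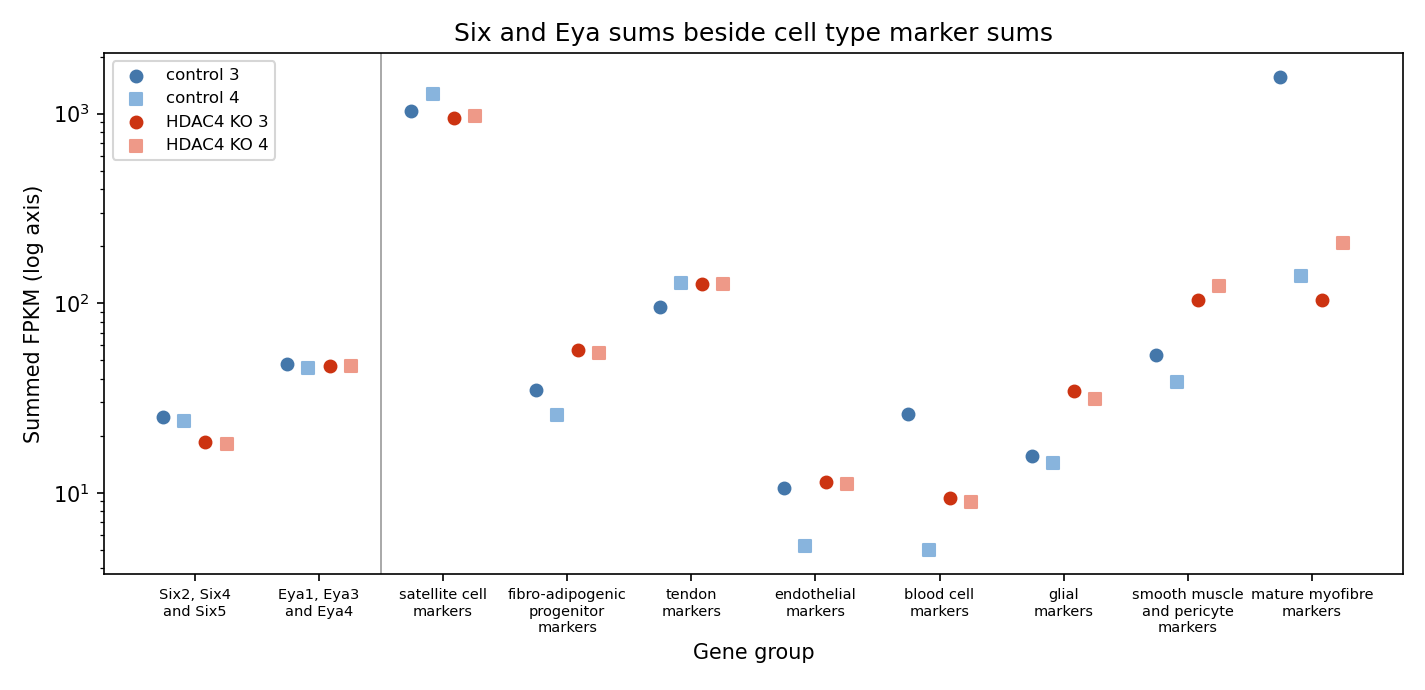
Summed FPKM (log axis) of the Six-family and Eya members, left of the line, and of the cell type marker lists, right of it, in each library. The Six-family sum is 24.0 and 25.0 FPKM in the controls against 18.2 and 18.6 FPKM in the KO. The Eya sum is 45.6 to 47.6 FPKM in all 4. The glial and smooth muscle marker sums are higher in both KO libraries. The powers of 10 of Eya3, Ngfr, Acta2, Tagln and Cspg4 in these sums were open.

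Members were also set against Pax7 and Itga7, the latter being the surface protein kept by the sort, a comparison chosen after the values were seen. Relative to Pax7, Six2 still lay lower in both KO libraries than in both controls, whereas the groups overlapped for Six4 and Six5. Relative to Itga7, Six2 was at 9.65% and 8.69% in control 3 and 4 and at 8.20% and 6.04% in KO 3 and 4. Six4 was at 8.96% and 6.54% of Itga7 in the controls and at 5.99% and 5.97% in the KO, so these groups did not overlap either, whereas those of Six5 did, at 1.14% and 0.794% in the controls and 0.845% and 0.464% in the KO. Eya1, Eya3 and Pitx3 lay higher in both KO libraries relative to Pax7, and each overlapped relative to Itga7. The gap was slight for Pitx3, at 321.4% of Pax7 in control 4 and 322.0% in KO 4. It was also slight for Eya3, at 184.9% in control 3 and 186.3% in KO 4. Pax7 was itself lower in both KO libraries, at 17.1 FPKM in each, than in control 3 and 4, at 18.4 and 21.4 FPKM.

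The genes around the members were read from lists of the Six-family network. Of the cofactors of Six-family and Eya proteins, 8 were tested, 3 above 0 and 5 below, with a median of -0.14 and 0 called. Tle3, a Groucho-type corepressor, was at 48.4 and 48.9 FPKM in the controls and 40.6 and 42.5 FPKM in the KO, with its power of 10 open. It did not overlap between groups and had the lowest difference of these, -0.22 ± 0.09 (SE, limma adjusted p = 0.349). Dach1 and Dach2, the Eya partners, were under the filter. Of the parallel upstream factors, Pax7, Tbx1 and Lbx1 were tested, with differences of -0.20, -0.06 and -0.01 (adjusted p from 0.468 to 0.974).

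Of the known targets in muscle, 11 of 12 were tested, 6 above 0 and 5 below, with a median of 0.03 and 0 called. Myod1 was at 633 and 833 FPKM in the controls and 563 and 530 FPKM in the KO (difference -0.41, limma adjusted p = 0.350), and Myf5 at 14.0 and 13.0 FPKM in the controls and 10.8 and 11.0 FPKM in the KO (difference -0.29, adjusted p = 0.311). Both lay below their controls in both KO libraries. Myog was at 13.5 and 18.7 FPKM in the controls and 18.4 and 33.8 FPKM in the KO, and control 4 exceeded KO 3 (difference 0.62, adjusted p = 0.449). Ccnd2, cyclin D2, was at 26.1 and 21.8 FPKM in the controls and 34.7 and 35.8 FPKM in the KO, with a difference of 0.54 ± 0.12 (SE, adjusted p = 0.221). The powers of 10 of Myf5, Myog and Ccnd2 were open. The plot of differences by list sets these genes beside the members.

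**Figure D4:**
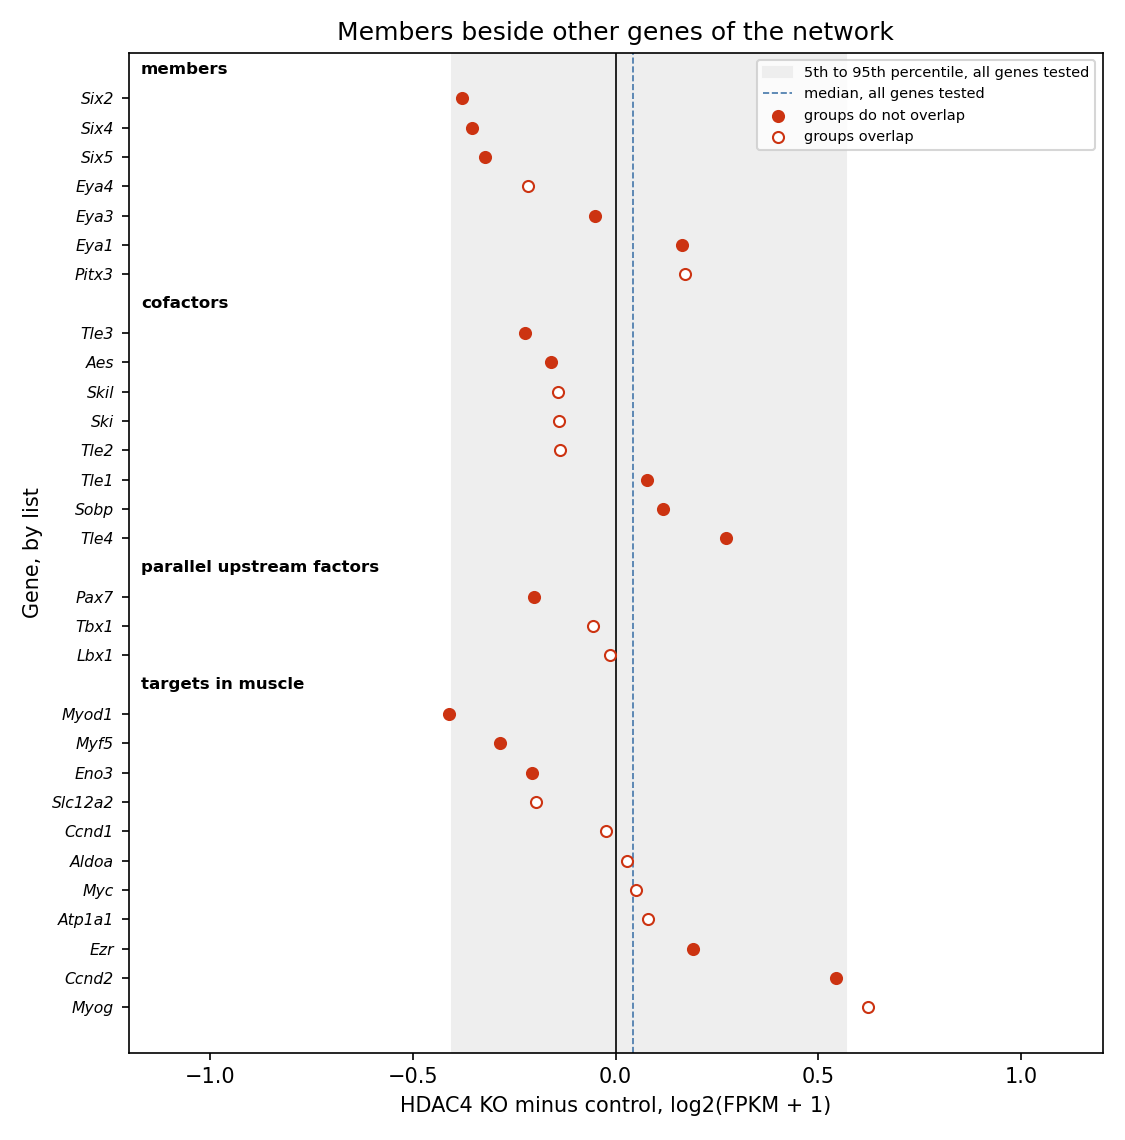
Log2 difference, HDAC4 KO minus control on log2(FPKM + 1), of every tested member and of the tested genes of 3 lists. Filled points have groups that do not overlap, open points overlap, and the grey band runs from the 5th to the 95th percentile of all genes tested, -0.40 to 0.57. All 7 members lie within the band, with Six2, Six4 and Six5 near its lower edge.

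The genes most like each member were taken as those with the smallest root mean square difference in log2(FPKM + 1) after each profile was centred over the 4 libraries. They were Slc52a2 and Dhcr7 for Six2, Dpm1 and Nvl for Six4, Ndufa6 and Zfp53 for Six5, Bnip2 and Sgms2 for Eya1, Coq5 and Fam160b2 for Eya3, Rab18 and Cdkn2aip for Eya4, and Tmem160 and 6330562C20Rik for Pitx3. Over 4 libraries such likeness is common, since the genes within 0.05 of a member numbered 33 for Six2, 51 for Six4, 13 for Six5, 311 for Eya1, 586 for Eya3, 143 for Eya4 and 7 for Pitx3. No member was among the nearest genes of another.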

How the data were processed

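Single-end reads of TruSeq Stranded mRNA libraries were, per the submitters' processing notes and the study's methods, demultiplexed with CASAVA 1.8.2, trimmed with ERNE and cutadapt, and mapped with TopHat on GRCm38. From Cufflinks and Cuffdiff, the authors deposited 1 FPKM table per library, each value with confidence bounds, and a Cuffdiff table with pooled group FPKM, log2 fold changes and test statistics. The fold change and test statistic (score) columns, and the p-value and q-value columns deposited by the authors, hold their own comparison and were not used. The fragments behind each value are not in the FPKM, so no counting interval or floor is given.

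Decimal points were missing from 11652 to 11900 values per library. They were put back where the estimate lay midway between its bounds (tolerance 4e-05), the 2 libraries gave the authors' pooled FPKM (tolerance 0.02 on the log2 scale), and the bound widths were like those of the other libraries. Of 43437 gene IDs, 17710 were at 0 in every library and 25110 were restored. Of the remainder, 40 were listed at several places, 21 had a failed estimate, 78 no midpoint, 194 did not meet the pooled value and 284 had more than 1 ratio left. An open power of 10 (7990 genes averaging 1 FPKM or more) was set from bound width and transcript length, a rule that was right in 82.9% of cases (2634 of 3176) when known levels were hidden. All 8 members had the same values without the pooled FPKM. The scripts were tested on simulated data.

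limma 3.58.1 (R 4.3.3) was run with a mean-dependent prior on log2(FPKM + 1), with no replicate block, as the study compared the groups unpaired. The correlation of the deviations of same-numbered libraries was -0.07, so the numbers were not taken as pairs. The exact permutation test of 2 against 2 cannot go below p = 0.333 and was not used. Alternatives were other pseudocounts (0.1 and 0.5), filters, scalings and priors, the replicate block, leaving out each library and points placed within each library alone. The text names every member, genes of the network lists, the 2 genes with the most similar profile, genes within 5 kb, and Hdac4. Some genes of the lists are not reported here. The members and lists were chosen with earlier results of these data known. In the lists, Six6, Cdh15, Adgre1 and Acta1 had no restored value, and Tle5 stands in the tables under its older symbol Aes.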

Additional observations from a re-analysis of the deposited data

How the results depend on the processing

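No member was called with all 4 libraries or in any alternative tried, the lowest adjusted p of a member being 0.194 (Six2, protein-coding genes only). Six2 ranged from -0.47 to -0.29 over its 14 alternatives (adjusted p 0.194 to 0.729), Six4 from -0.46 to -0.25 (0.259 to 0.775), Six5 from -0.58 to -0.18 (0.363 to 0.745), Eya1 from 0.10 to 0.23 (0.510 to 0.844), Eya3 from -0.10 to -0.02 (0.592 to 0.959) and Eya4 from -0.38 to -0.05 (0.303 to 0.886), each with its direction kept. Pitx3 turned to -0.17 without control 3 and ranged up to 0.51. The median of the tested members was -0.36 with a pseudocount of 0.1 and -0.05 among the 5 members with a mean of at least 5 FPKM, where the lower members are left out.

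The count over all genes moved more. It was 0 with all libraries (1733 genes at an unadjusted p under 0.05), 8 with a pseudocount of 0.1, 4 with 0.5, 18 with a mean of at least 5 FPKM, 71 with protein-coding genes only, 14 with no mean-dependent prior and 14 with the replicate block, which called no member. Leaving out 1 library gave 0 to 77 genes, with 73 without control 3, 77 without control 4 and 0 without either KO library, and the lone library of a group was then assumed to vary like the others. With 2 libraries per group, a difference of the size seen in Six2 or Six4 was not called here.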
